A study of Homo sapiens with 4 samples.

Results

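The interferon and RNA-sensing genes are the machinery with which a cell detects foreign RNA in its cytosol or endosomes and answers it. Their list held 49 genes chosen by name, and 45 of them were measured on the arrays by a probe set that carries no other gene symbol, among 14232 genes measured in this way. The cells were TE-1, an established line from an esophageal squamous cell carcinoma, grown in RPMI medium with serum and transfected with siRNA in a cationic lipid reagent. TE-1-siFOXM1 cells (2 arrays) received siRNA against FOXM1, a forkhead transcription factor of dividing cells, and TE-1-SCR cells (2 arrays) received a scrambled siRNA. By the methods they were transfected again after a day and harvested a day later. Both groups therefore carried a transfected RNA duplex, and no array of untransfected cells was analysed here, so the levels are those of transfected cells and the comparison is between 2 siRNAs.

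As background, the sensors RIG-I (RIGI) and MDA5 (IFIH1) bind RNA duplexes in the cytosol and signal through the adaptor MAVS. TLR3 binds RNA duplexes in endosomes and does not signal through MAVS. The transcription factors IRF3 and IRF7 then induce interferon-beta (IFNB1), which is secreted and acts on a receptor of the chains IFNAR1 and IFNAR2. Signaling from the receptor activates STAT2, which acts with IRF9 at the interferon-stimulated response element in the promoters of many antiviral genes, such as the IFIT, OAS and MX families and ISG15. RNA sensing matters for siRNA experiments because some duplexes are themselves seen by these sensors.

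Each array gave a log2 expression value for every probe set. How bright a probe set is depends on its probes as well as on the RNA, so values were compared between arrays for each gene and not between genes, and a level was described only by whether it lay above or below the median of all probe sets (7.58). A lower value in a whole culture cannot tell less RNA per cell from fewer cells that contain it. FOXM1, the target of the siRNA, had log2 values of 8.28 and 8.06 in TE-1-siFOXM1 cells, against 10.55 and 9.75 in TE-1-SCR cells, a difference of -1.98 (95% interval -2.75 to -1.21, limma). Array medians lay between 7.54 and 7.63, and pairs of arrays correlated between 0.984 and 0.992 across probe sets. Of 11 measured markers of squamous epithelium, 9 lay at or above the median level, with KRT15 and DSC3 below it, whereas 6 of 8 markers of immune cells and 8 of 9 of stromal and endothelial cells lay below it, and the pan-leukocyte marker PTPRC had values between 3.50 and 3.74. The exceptions were CD68, a marker of macrophages, with values between 11.08 and 11.30, NKG7, of cytotoxic lymphocytes, between 7.58 and 7.88, and the collagen gene COL1A1, between 7.70 and 7.92. The averages of the immune markers were 6.32 and 6.49 in TE-1-siFOXM1 cells and 6.47 and 6.46 in TE-1-SCR cells. Whether the replicates came from separate cultures is not stated in the sources used here, and the p-values cover no more than the spread among these 4 arrays, a spread that could be technical.

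Of the 4 genes not measured, IFITM2, IFITM3 and USP18 share each of their probe sets with another symbol, and STAT2 has no probe set under its own symbol. These 4 genes were not analysed here. The other 45 each had a single probe set, 21 with a mean over the 4 arrays at or above the median level and 24 below it.

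Response elements are what many of these genes have in common in their DNA. The sequence was not used to choose them, but their link to interferon was, so a high share of matches is no independent result. The core of the element, GAAA followed by any 2 bases and a further GAAA, was searched on both strands of RefSeq promoter windows (GRCh38.p14, 250 bases before to 50 bases after a start site), and overlapping matches were counted separately. It occurred in at least 1 window of 24 of the 38 listed genes in the table (63.2%), and in 21 of 51 further genes of the same pathways (41.2%), against 4.38% of all 27305 genes in the table and 3.57% of all 35116 windows. A gene may have several windows, and a match is a description of letters and not a site shown to be bound. Shown here are windows of 6 genes that the results turn on: IFNB1, EPSTI1 and XAF1, which differed most between the groups, IFIT3 and IFI27, which varied strongly between replicates, and ISG15, which hardly varied. IFIT3, IFI27 and XAF1 have 2 windows each, and the window with the most matches was chosen, or 1 of the 2 where neither had a match. Matches to the core or to its reverse complement are in capitals, and the strand is that of the gene.
EPSTI1, chr13:42992192-42992491, minus strand: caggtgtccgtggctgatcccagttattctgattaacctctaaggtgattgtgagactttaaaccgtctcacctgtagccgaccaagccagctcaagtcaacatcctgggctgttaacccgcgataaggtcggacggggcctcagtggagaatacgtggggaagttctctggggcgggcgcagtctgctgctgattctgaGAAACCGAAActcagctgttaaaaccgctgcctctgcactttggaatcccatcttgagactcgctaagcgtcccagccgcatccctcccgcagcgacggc
IFIT3, chr10:89327747-89328046, plus strand: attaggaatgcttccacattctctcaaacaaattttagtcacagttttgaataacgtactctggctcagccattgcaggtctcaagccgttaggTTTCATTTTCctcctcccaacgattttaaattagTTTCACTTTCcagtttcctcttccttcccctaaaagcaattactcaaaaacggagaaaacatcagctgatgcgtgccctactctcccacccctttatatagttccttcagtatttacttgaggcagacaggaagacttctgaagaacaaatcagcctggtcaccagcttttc
IFI27, chr14:94110486-94110785, plus strand: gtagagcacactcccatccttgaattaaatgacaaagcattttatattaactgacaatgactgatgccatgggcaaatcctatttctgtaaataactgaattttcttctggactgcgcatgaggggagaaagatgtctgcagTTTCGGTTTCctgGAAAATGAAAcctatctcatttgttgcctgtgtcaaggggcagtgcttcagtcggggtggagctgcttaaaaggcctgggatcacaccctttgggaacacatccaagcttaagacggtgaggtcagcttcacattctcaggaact
ISG15, chr1:1013247-1013546, plus strand: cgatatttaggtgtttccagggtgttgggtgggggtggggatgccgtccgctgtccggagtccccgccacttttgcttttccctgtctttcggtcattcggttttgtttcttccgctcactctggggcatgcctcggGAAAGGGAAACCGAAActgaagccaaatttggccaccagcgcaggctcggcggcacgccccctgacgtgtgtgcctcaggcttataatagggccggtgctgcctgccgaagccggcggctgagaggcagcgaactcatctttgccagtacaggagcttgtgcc
XAF1, chr17:6755796-6756095, plus strand: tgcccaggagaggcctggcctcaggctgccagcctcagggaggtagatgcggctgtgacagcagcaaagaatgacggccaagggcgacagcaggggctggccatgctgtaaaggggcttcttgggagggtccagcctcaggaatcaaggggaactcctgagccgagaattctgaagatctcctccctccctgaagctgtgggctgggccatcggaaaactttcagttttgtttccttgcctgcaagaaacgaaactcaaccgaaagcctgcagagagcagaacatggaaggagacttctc
IFNB1, chr9:21077893-21078192, minus strand: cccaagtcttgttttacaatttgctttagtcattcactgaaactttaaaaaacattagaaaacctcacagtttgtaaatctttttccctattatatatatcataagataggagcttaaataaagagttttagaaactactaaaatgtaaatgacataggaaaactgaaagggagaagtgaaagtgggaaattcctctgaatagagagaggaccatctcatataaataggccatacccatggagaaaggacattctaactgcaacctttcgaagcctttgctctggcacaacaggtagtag
The match in EPSTI1 began 50 bases before the start site, those in IFIT3 156 and 122 bases before it, and those in IFI27 108 and 95 bases before it. In ISG15 the 2 matches overlapped and began 113 and 107 bases before the start site. The 2 windows of XAF1 and the window of IFNB1 held no match, which says only that these letters do not occur there.

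None of the 45 measured genes was 1.5-fold apart between the groups, the criterion of the study, against 1.01% of all genes (80 higher and 64 lower). At that share a list of this size can easily hold none, so the count is not read as a trait of the list. The largest difference was in IFNB1, 1.34-fold lower in TE-1-siFOXM1 cells, and the largest increase was in XAF1, 1.32-fold higher, and adjusted p was 1 for each gene of the list (limma, Benjamini-Hochberg over all probe sets). As 0% of all 14232 genes passed an adjusted p of 0.05, and the silenced FOXM1 did not pass either (adjusted p = 1), this says nothing about the list in particular. An unadjusted p under 0.05 was found for EPSTI1 alone, against 1.83% of all genes. The differences were negative for 30 genes and positive for 15, with a median of -0.09, while 49% of all genes were negative and their median was 0.0033. Values of the 2 groups did not overlap for 14 genes, 5 higher and 9 lower, in a background of 13.5% and 13.8% of all genes. The spread between replicates (pooled SD) exceeded the difference between the groups for 25 of the 45 genes, and for 64.0% of all genes.

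**Figure D1:**
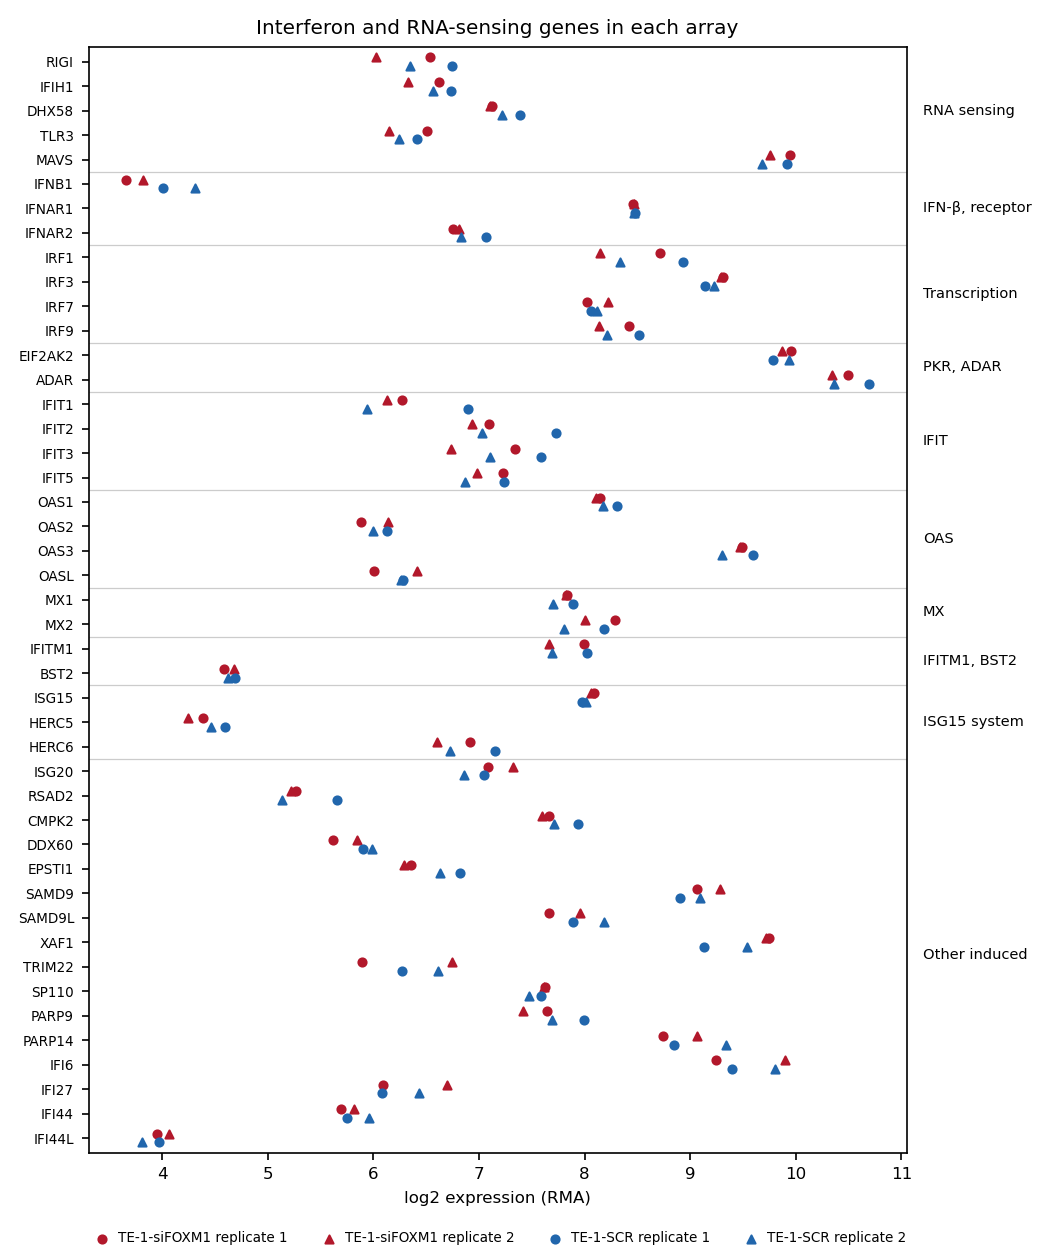
Log2 expression of the 45 measured genes (rows, grouped by role) in each of the 4 arrays, with circles for replicates numbered 1 and triangles for replicates numbered 2. The red (TE-1-siFOXM1) and blue (TE-1-SCR) symbols of a gene lie close together and mostly overlap, and in 14 genes the groups are separate.

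These arrays limit how small a difference can be stated. The 95% interval of the difference (limma, not adjusted for the number of genes) lay within 1.5-fold in both directions for 22 of the 45 genes, against 60.9% of all genes. For the 23 others, a change of 1.5-fold in at least 1 direction lay within the interval. The median standard error was 0.17 on the log2 scale, and with 2 arrays in each group the smallest two-sided p of an exact permutation test is 0.333.

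**Figure D2:**
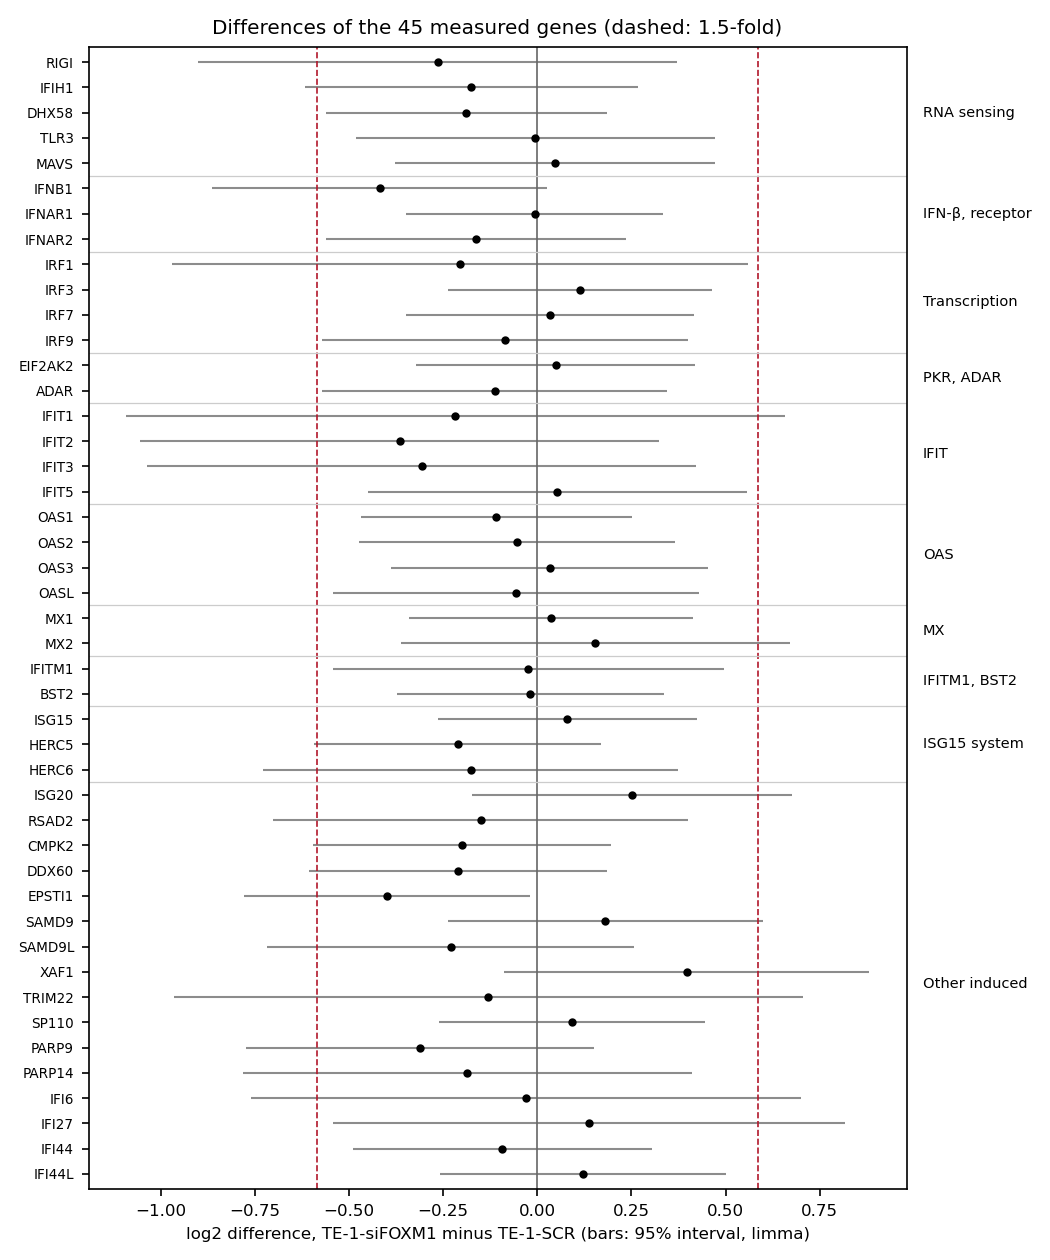
Difference of the log2 group means (TE-1-siFOXM1 minus TE-1-SCR) of each measured gene with its 95% interval from limma, and 1.5-fold as dashed lines. All 45 points lie between -0.42 and 0.40, and only the interval of EPSTI1 leaves out 0.

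Among the 5 genes of RNA sensing, DHX58 was the one whose groups did not overlap. RIGI had log2 values of 6.54 and 6.02 in TE-1-siFOXM1 cells and 6.74 and 6.35 in TE-1-SCR cells, a difference of -0.26 (95% interval -0.90 to 0.37). IFIH1 had 6.62 and 6.33 in TE-1-siFOXM1 cells and 6.74 and 6.57 in TE-1-SCR cells, a difference of -0.18 (-0.62 to 0.27). In both genes the lower TE-1-SCR array lay below the higher TE-1-siFOXM1 array, so the groups overlapped. Without replicate 2 of TE-1-siFOXM1 the differences were -0.0086 in RIGI and -0.03 in IFIH1, and without replicate 1 of TE-1-siFOXM1 they were -0.52 and -0.32. Without replicate 1 of TE-1-SCR they were -0.07 and -0.09, and without replicate 2 of TE-1-SCR -0.46 in RIGI. DHX58 encodes LGP2, a relative of RIG-I that modulates the sensing of RNA, and it had 7.13 and 7.10 in TE-1-siFOXM1 cells and 7.39 and 7.21 in TE-1-SCR cells. These did not overlap, with a difference of -0.19 (-0.56 to 0.19, limma adjusted p = 1). TLR3 had 6.51 and 6.14 in TE-1-siFOXM1 cells and 6.42 and 6.25 in TE-1-SCR cells, a difference of -0.0048 (-0.48 to 0.47). The adaptor MAVS, the only gene of this group above the median level, had 9.94 and 9.75 in TE-1-siFOXM1 cells and 9.92 and 9.68 in TE-1-SCR cells, a difference of 0.05 (-0.38 to 0.47). For TLR3 and MAVS the replicates of either group lay further apart than the group means.

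IFNB1 lay near the bottom of the arrays in every sample, with only 6.34% of probe sets at a lower mean. Its log2 values were 3.655 and 3.818 in TE-1-siFOXM1 cells and 4.004 and 4.306 in TE-1-SCR cells (means 3.74 ± 0.11 and 4.15 ± 0.21, SD, n = 2 each). The groups did not overlap, and the difference was -0.42 (95% interval -0.86 to 0.03, unadjusted p = 0.0602 and adjusted p = 1 from limma). Without replicate 2 of TE-1-SCR the difference was -0.27. At so low a level a probe set may report background as well as RNA, and no detection call was used here. The receptor chain IFNAR1 hardly varied among the arrays. It had 8.46 and 8.47 in TE-1-siFOXM1 cells and 8.48 and 8.47 in TE-1-SCR cells, a difference of -0.0072 (-0.35 to 0.33). IFNAR2, the other chain, had 6.75 and 6.81 in TE-1-siFOXM1 cells and 7.06 and 6.83 in TE-1-SCR cells, a difference of -0.16 (-0.56 to 0.24). Its groups did not overlap, but replicate 2 of TE-1-SCR exceeded replicate 2 of TE-1-siFOXM1 by a small part of the distance between the TE-1-SCR replicates.

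The transcription factors that carry the signal were all above the median level, with differences between -0.20 and 0.11. IRF3, which is activated by the sensors, had 9.31 and 9.29 in TE-1-siFOXM1 cells and 9.14 and 9.23 in TE-1-SCR cells, without overlap and with a difference of 0.11. IRF7, which amplifies interferon production, had a difference of 0.03, and IRF9, the DNA-binding partner of STAT2, of -0.09. IRF1, itself induced by interferons, differed by -0.20, and its replicates by 0.56 in TE-1-siFOXM1 cells and 0.60 in TE-1-SCR cells. EIF2AK2 encodes PKR, a kinase that halts translation when it binds RNA duplexes, and ADAR encodes an enzyme that edits such duplexes. Both lay above the median level, with differences of 0.05 and -0.11, and their groups overlapped.

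In the IFIT family, whose proteins bind foreign RNA or stall its translation, the values of replicate 1 of TE-1-SCR stood above the other arrays. IFIT1 had 6.27 and 6.13 in TE-1-siFOXM1 cells and 6.90 and 5.94 in TE-1-SCR cells. IFIT2 had 7.09 and 6.94 in TE-1-siFOXM1 cells and 7.73 and 7.03 in TE-1-SCR cells. For IFIT3 the values were 7.34 and 6.73 in TE-1-siFOXM1 cells and 7.58 and 7.10 in TE-1-SCR cells. All 3 genes overlapped between the groups, with differences of -0.22, -0.37 and -0.31 and standard errors of 0.34, 0.27 and 0.28. Without replicate 1 of TE-1-SCR the differences were 0.26, -0.01 and -0.07, and without replicate 2 of TE-1-SCR they were -0.70, -0.72 and -0.55, of which those of IFIT1 and IFIT2 exceed 1.5-fold. IFIT3 was also past 1.5-fold without replicate 1 of TE-1-siFOXM1 (-0.61). IFIT5 had a difference of 0.05, and all 4 genes lay below the median level.

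The oligoadenylate synthetases OAS1, OAS2 and OAS3 respond to RNA duplexes by making an activator of RNase L. With their relative OASL, they had differences between -0.11 (OAS1) and 0.03 (OAS3). For each of these 4 genes the 95% interval lay within 1.5-fold. OAS1 had 8.15 and 8.11 in TE-1-siFOXM1 cells and 8.30 and 8.17 in TE-1-SCR cells, without overlap. The values of OAS2, OAS3 and OASL overlapped. MX1 and MX2, dynamin-like GTPases that act against viruses, lay above the median level with differences of 0.04 and 0.15. MX2, among the 5 largest increases of the list, had 8.29 and 8.01 in TE-1-siFOXM1 cells and 8.18 and 7.81 in TE-1-SCR cells, which overlapped. IFITM1, a membrane protein that hinders viral entry, and BST2 (tetherin), which holds budding virus at the cell surface, had differences of -0.02 each. BST2 lay low on the arrays, between 4.59 and 4.69.

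ISG15, a ubiquitin-like modifier and among the most strongly induced targets of interferon in many cells, had 8.09 and 8.06 in TE-1-siFOXM1 cells and 7.97 and 8.02 in TE-1-SCR cells. The groups did not overlap, yet the difference was only 0.08 (95% interval -0.26 to 0.42). Of the ligases, HERC5, which attaches ISG15 to proteins in human cells, had 4.39 and 4.24 in TE-1-siFOXM1 cells and 4.60 and 4.46 in TE-1-SCR cells, a difference of -0.21 (-0.59 to 0.17). Its relative HERC6 had a difference of -0.18, with overlap.

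The 16 other induced genes held the extremes of the list beside IFNB1, with 3 genes higher and 4 lower without overlap. Of all genes, 13.5% were higher and 13.8% lower without overlap, and the counts in so small a group were not tested. EPSTI1, an interferon-induced gene also known from breast cancer, was 1.32-fold lower in TE-1-siFOXM1 cells. It had log2 values of 6.36 and 6.29 in TE-1-siFOXM1 cells (6.32 ± 0.05, SD, n = 2) and 6.82 and 6.63 in TE-1-SCR cells (6.72 ± 0.13, SD, n = 2), and its difference of -0.40 had a 95% interval of -0.78 to -0.02 (unadjusted p = 0.0426, adjusted p = 1, limma). Leaving out any single array kept its difference between -0.49 and -0.31. PARP9, which acts with the ligase DTX3L in interferon signaling, had 7.64 and 7.42 in TE-1-siFOXM1 cells and 7.99 and 7.69 in TE-1-SCR cells, a difference of -0.31 (-0.77 to 0.15). Its groups did not overlap, but their nearest values lay closer together than its replicates did. Its difference was -0.16 without replicate 1 of TE-1-SCR and -0.20 without replicate 2 of TE-1-siFOXM1. CMPK2, a mitochondrial nucleotide kinase, and DDX60, a helicase, were also lower without overlap, by -0.20 and -0.21. In both genes the nearest values of the groups lay closer together than the replicates of either group.

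XAF1, which promotes apoptosis and binds the inhibitor of apoptosis XIAP, had the largest increase of the list. Its log2 values were 9.75 and 9.72 in TE-1-siFOXM1 cells and 9.13 and 9.54 in TE-1-SCR cells (means 9.73 ± 0.02 and 9.34 ± 0.29, SD, n = 2 each), a difference of 0.40 (95% interval -0.09 to 0.88). The 2 TE-1-siFOXM1 values were near each other and above both TE-1-SCR values. The size of the difference rested on replicate 1 of TE-1-SCR, without which it was 0.19, and without replicate 2 of TE-1-SCR it was 0.60. ISG20, an exonuclease that degrades RNA, had 7.08 and 7.32 in TE-1-siFOXM1 cells and 7.04 and 6.85 in TE-1-SCR cells, a difference of 0.25 (-0.17 to 0.68) without overlap. This difference was 0.13 without replicate 2 of TE-1-siFOXM1 and 0.16 without replicate 2 of TE-1-SCR. SAMD9, a restriction factor of poxviruses, had 9.07 and 9.29 in TE-1-siFOXM1 cells and 8.90 and 9.09 in TE-1-SCR cells, and these values overlapped. Its neighbor SAMD9L had a difference of -0.23, opposite in sign to the 0.18 of SAMD9. IFI27, a mitochondrial protein, had 6.09 and 6.70 in TE-1-siFOXM1 cells and 6.08 and 6.43 in TE-1-SCR cells, a difference of 0.14 that is small beside the distance between its replicates. SP110, a nuclear body protein, was higher without overlap by 0.09. RSAD2 (viperin), TRIM22, PARP14, IFI6, IFI44 and IFI44L had differences between -0.19 and 0.12, and all of them overlapped.

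**Figure D3:**
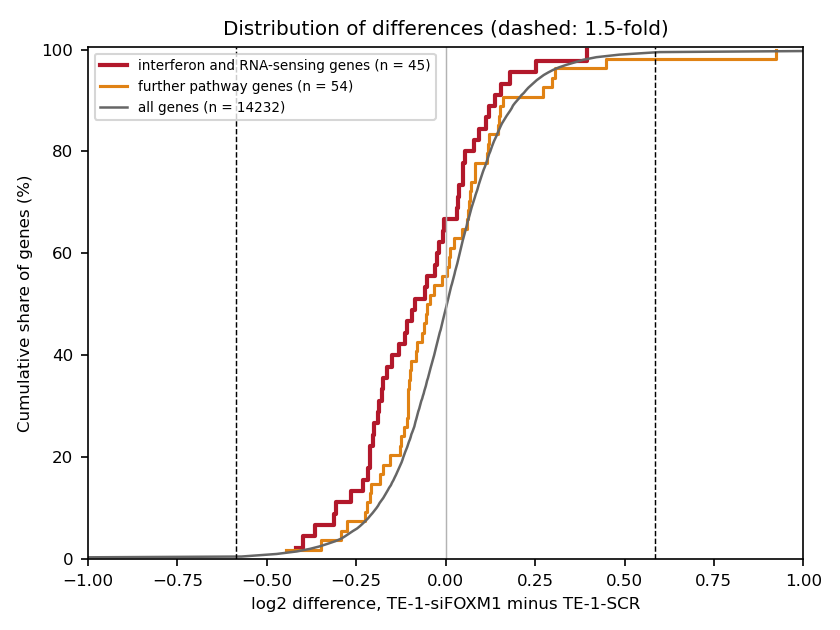
Cumulative share of genes (percent) by log2 difference (TE-1-siFOXM1 minus TE-1-SCR) for the 45 interferon and RNA-sensing genes, the 54 further pathway genes and all 14232 genes, with 1.5-fold as dashed lines. The curve of the 45 genes lies to the left of that of all genes around 0 (medians -0.09 and 0.0033), and none of them reaches a dashed line.

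The median of the list moved with the arrays that were used, and that of all genes moved with it. Replicate 1 of TE-1-SCR was the highest of the 4 arrays for 23 of the 45 genes, and for 42.0% of all genes. Without it the median of the list was 0.0044, with 0.07 for all genes. Without replicate 2 of TE-1-SCR it was -0.12, with -0.07 for all genes. Without replicate 1 of TE-1-siFOXM1 it was -0.07, with -0.04 for all genes, and without replicate 2 of TE-1-siFOXM1 it was -0.04, with 0.04 for all genes. The list median was the lower of the pair in each of these 4 fits, which share arrays. On leaving out the arrays 1 at a time, 22 genes kept the sign of their difference and 23 changed it at least once. The 24 genes below the median level had a median of -0.16 and 19 negative differences, whereas the 21 genes at or above it had a median of -0.0072 and 11 negative differences. The same split of all genes is not given here, and this contrast was not tested. Genes with and without a match to the core of the response element both had more negative than positive differences, and a difference between them was not tested. The 23 measured genes with the core in a promoter window had a median of -0.02, with 14 negative differences, and the 13 measured genes of the table without it had a median of -0.11, with 10 negative differences.

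Within a group, the genes of the list did not all vary in the same direction. Replicate 1 exceeded replicate 2 in both groups for 24 of the 45 genes (53.3% of all genes), replicate 2 exceeded replicate 1 in both groups for 10 (15.9% of all genes), and 11 differed in opposite directions. IFIT3, RIGI and IRF1 were among the first kind, and RIGI was higher in replicate 1 by 0.51 in TE-1-siFOXM1 cells and 0.40 in TE-1-SCR cells. IFI6, IFI27, TRIM22 and PARP14 were among the second kind. IFI6, a mitochondrial protein induced by interferon, had 9.24 and 9.90 in TE-1-siFOXM1 cells and 9.40 and 9.81 in TE-1-SCR cells. TRIM22, a ubiquitin ligase with antiviral activity, had 5.89 and 6.74 in TE-1-siFOXM1 cells and 6.27 and 6.61 in TE-1-SCR cells. For both genes the replicates of either group lay further apart than the group means, with differences of -0.03 and -0.13. IFI6 and TRIM22 were picked for description with their values known, and what separated the arrays numbered 1 from those numbered 2 was not tested.

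**Figure D4:**
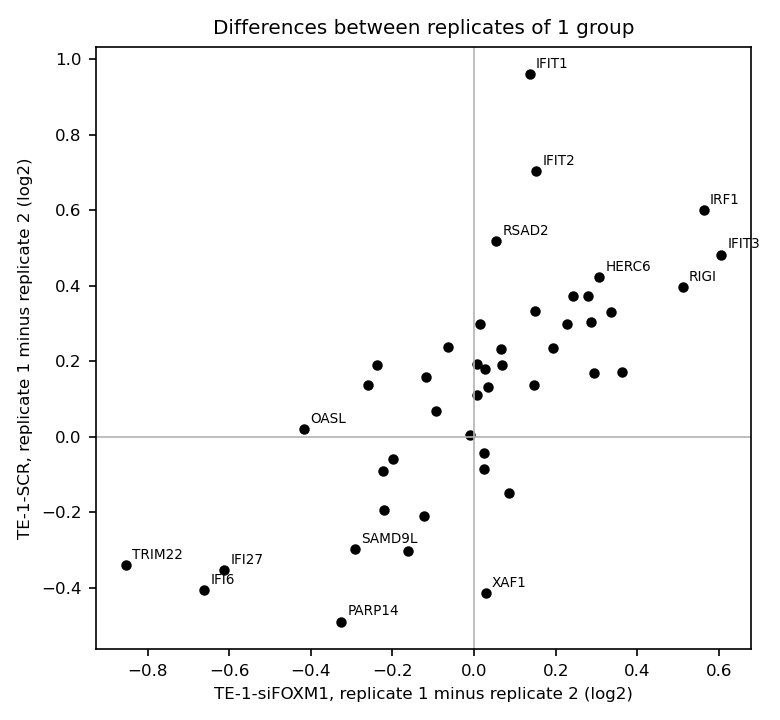
Log2 difference between replicate 1 and replicate 2 within TE-1-siFOXM1 (horizontal axis) and within TE-1-SCR (vertical axis), with 1 point for each of the 45 measured genes. In the upper right quadrant are 24 genes such as RIGI, IRF1 and IFIT3, and in the lower left are 10 such as IFI6, IFI27 and TRIM22.

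Of 70 further genes of the interferon and RNA-sensing pathways, 54 were measured, and 1 was 1.5-fold higher (background 0.562% of all genes) and none 1.5-fold lower (0.45%). None passed limma, as for 0% of all genes, and the median difference was -0.05. The gene 1.5-fold apart was IFNK, which encodes interferon-kappa, a type I interferon of keratinocytes. It had log2 values of 4.25 and 4.26 in TE-1-siFOXM1 cells and 3.34 and 3.33 in TE-1-SCR cells, a difference of 0.92 or 1.90-fold (95% interval 0.58 to 1.26, unadjusted p = 0.00102 and adjusted p = 1 from limma). The SDs were 0.0058 in TE-1-siFOXM1 cells and 0.0089 in TE-1-SCR cells (n = 2 each), and the difference stayed between 0.92 and 0.93 without any single array. The level was near the bottom of the arrays in both groups, with 5.35% of probe sets at a lower mean, and no detection call was used.

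Next among the increases were OGFR, the receptor of opioid growth factor and an interferon-induced gene, with 9.19 and 9.12 in TE-1-siFOXM1 cells and 8.74 and 8.68 in TE-1-SCR cells (difference 0.45, 95% interval 0.10 to 0.80, limma unadjusted p = 0.0218, adjusted p = 1), and TRAF3, a ligase that links MAVS and TLR3 signaling to interferon induction. TRAF3 had 9.31 and 9.29 in TE-1-siFOXM1 cells and 9.02 and 8.97 in TE-1-SCR cells, a difference of 0.30. For both genes the groups were separate by far more than their replicates. The largest decreases were in IRF2, an antagonist of IRF1 at shared sites (-0.45), the MAVS-associated protein TRIM14 (-0.35) and the death ligand TNFSF10 (-0.29), all with overlap between the groups. IRF2 had 9.10 and 8.67 in TE-1-siFOXM1 cells and 9.69 and 8.98 in TE-1-SCR cells, and its difference was -0.09 without replicate 1 of TE-1-SCR and -0.80 without replicate 2. That of TRIM14 was -0.13 and -0.57. That of TNFSF10 was -0.04 without replicate 1 of TE-1-siFOXM1 and -0.55 without replicate 2.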

How the data were processed

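The authors labelled total RNA for Affymetrix whole-transcript arrays, processed the scans with robust multi-array average (RMA) in Expression Console, and deposited log2 expression values of 22011 probe sets on 4 arrays. The submitters' processing notes name the build hg18, with no versions. RMA quantile-normalizes arrays, so a change shared by most genes may be reduced or lost. The deposited values still differed in distribution. Their upper quartiles were 9.10 and 8.95 in TE-1-siFOXM1 replicates 1 and 2, and 9.12 and 8.93 in TE-1-SCR replicates 1 and 2. Whether these 4 arrays were normalized with others was not stated.

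Genes were named from the platform annotation: 14432 probe sets had 1 symbol, 2408 several and 5171 none. Only the first kind was used, and the probe set with the highest mean stood for a gene. All 49 listed symbols matched current RefSeq symbols. The members and lists were chosen with earlier results of these data known.

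All probe sets were fitted with limma (version 3.58.1, R 4.3.3), siFOXM1 minus SCR, without the replicate number, two-sided, and p-values were adjusted by Benjamini-Hochberg across every probe set. The fit was tested on simulated data. Values in every array are given for the RNA sensors, IFNB1 and its receptor chains, genes with an unadjusted p under 0.05, and the 5 largest increases and decreases. Of the further genes, those 1.5-fold apart and the 3 largest changes each way are named. Precision is limited by the number of arrays. Alternatives were the replicate block, centring, quantile normalization, a level filter, an intensity trend with robust estimation, averaged probe sets, linear means, a 2-fold criterion and leaving out each array.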

Additional observations from a re-analysis of the deposited data

How the results depend on the processing

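Under every alternative fitted with limma, 0 genes of the list and 0 of all probe sets had an adjusted p under 0.05. In the limma fits of all 4 arrays, between 0 and 4 listed genes had an unadjusted p under 0.05, and the shares of all genes are not given for the alternatives. No listed gene was 1.5-fold apart under the alternatives that kept all 4 arrays. By design, the replicate block and the intensity trend leave every difference unchanged, and so do averaged probe sets for genes with 1 probe set. A 2-fold criterion can add no gene, so none of these could have changed the result. Without replicate 2 of TE-1-SCR, XAF1 (0.60), IFIT1 (-0.70) and IFIT2 (-0.72) were past 1.5-fold, beside 1.31% of all genes higher and 1.81% lower. Without replicate 1 of TE-1-siFOXM1, IFIT3 (-0.61) was past 1.5-fold, beside 1.00% of all genes lower. Leaving out either of the other arrays put no listed gene past 1.5-fold. Genes without overlap numbered 5 higher and 9 lower. Leaving out single arrays gave 8 to 13 higher and 12 to 25 lower. By design, 1 array against 2 overlaps less easily. The 25 were found without replicate 2 of TE-1-SCR, a fit in which the median of all genes was -0.07. It kept replicate 1 of TE-1-SCR, the highest of the 4 arrays for 51.1% of the listed genes and 42.0% of all genes. Shares of all genes without overlap are not given for these fits, so the counts are not read as a trait of the list. Quantile normalization gave 3 higher, and a filter on the mean of the higher group, which had to reach the median level, kept 22 listed genes and gave 3 lower. Of the 22, SP110 reached it through TE-1-siFOXM1 alone, and PARP9, which is among the 3 lower, through TE-1-SCR alone. No median is therefore drawn from this filter, and its counts are not read as a result. Of the further pathway genes, 1 was 1.5-fold apart, between 1 and 2 without single arrays, of which 0 to 1 lower, and 0 with that filter or with a 2-fold criterion. The median of the list was between -0.12 and 0.0044 without single arrays. With the replicate number as a block, the balanced layout leaves every difference, and so the median of -0.09, unchanged by design. The number of listed genes with an unadjusted p under 0.05 (limma) went to 4, against 1 without the block. The share of all genes is not given for that fit, so the rise is not read as a trait of the list. The lowest adjusted p in the list was 0.694 with the block (limma). The labels do not say what a number shares. Same-numbered deviations correlated at 0.336 across all probe sets and at 0.706 across the 45 genes, which are not independent replicates. With 2 arrays a group, a difference smaller than the half-width of its interval did not pass even an unadjusted p of 0.05 (limma). Larger differences, that of FOXM1 included, did not pass an adjusted p of 0.05.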
